A study of Mus musculus with 3 samples.

Results

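The genes described here make, inactivate and sense prostacyclin, prostaglandin E2 and thromboxane, together with 1 gene of the leukotriene branch, in endothelial cells (ECs) of the adult mouse lung. The 10 genes were chosen by name, with earlier results of these data known. All 10 have a row among the 24346 gene symbols of the deposited table. They are the cyclooxygenases *Ptgs1* and *Ptgs2*, the terminal synthases *Ptgis*, *Ptges* and *Tbxas1*, the receptors *Ptgir*, *Ptger4* and *Tbxa2r*, the inactivating enzyme *Hpgd*, and *Alox5ap*. The 3 libraries, S38, S44 and S52, form 1 group: lung ECs of wild-type C57BL/6J male mice of 6 to 8 weeks, freshly isolated from the tissue. VE-cadherin antibody was injected into the circulation before death, the lungs were digested with collagenase and dispase, and cells positive for CD31 were sorted with CD45 and podoplanin as counterstains. The study set such lung ECs beside those of kidney, heart and liver to describe how the vasculature of an organ is specialised. Only the lung of adult mice was used for what follows, which leaves nothing to test between conditions, and the sources used here do not say whether each library came from its own mouse.

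Prostanoids are short-lived lipids made from arachidonic acid. Phospholipases free the acid from membranes, a cyclooxygenase turns it into an unstable endoperoxide, and terminal synthases turn the endoperoxide into prostacyclin, thromboxane or a prostaglandin, each of which acts on its own G protein-coupled receptors. Prostacyclin, classically a product of vessel walls, relaxes vessels and holds platelets quiet, thromboxane, classically a product of platelets, does the reverse, and the lung removes prostaglandin E from the blood that passes through it by uptake and oxidation. The leukotriene branch starts from the same acid through a lipoxygenase.

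Levels are FPKM, fragments scaled to gene length and library size, so levels of different genes can be set side by side. The threshold for calling a gene detected was a mean of 1 FPKM. The sorted fraction carried its defining transcripts, with *Pecam1* (CD31) at 1168 ± 45.5 and *Cdh5* (VE-cadherin) at 921 ± 51.5 FPKM (SD, n = 3 libraries). Library size is not in the table. Steps between low values put it at an estimated 37900000, 39200000 and 34400000 fragments for S38, S44 and S52, where 1 FPKM of a transcript of 2000 bp stands for 75.7, 78.5 and 68.7 fragments. S52 stood apart from the other libraries in genes of other cells. All 8 platelet markers were more than 2-fold below both other libraries there, and that list summed to 1952, 1580 and 50.5 FPKM (S38, S44, S52). The same held for 6 of 6 leukocyte markers, with sums of 126, 111 and 11.3 FPKM, and for 4 of 7 macrophage and neutrophil markers, with sums of 1101, 857 and 187 FPKM. It held for 5 of 5 alveolar type 2 markers (sums 3778, 3164 and 755 FPKM), 4 of 5 airway markers (2786, 2314 and 408 FPKM) and 2 of 3 mesothelial markers (2.04, 5.83 and 0 FPKM), and for 0 of 6 mural (201, 121 and 190 FPKM), 0 of 5 fibroblast (75.7, 57.6 and 44.2 FPKM), 0 of 10 endothelial (6442, 7063 and 6276 FPKM) and 0 of 5 lung capillary genes (2506, 2797 and 2620 FPKM). Within the endothelial and lung capillary lists single genes moved both ways. In S52, 3 endothelial genes were lowest and 3 highest, and 2 lung capillary genes were lowest and 3 highest. *Ednrb* was at 143, 155 and 75.3 FPKM and *Car4* at 855, 959 and 582 FPKM, while *Gpihbp1* was at 661, 663 and 886 FPKM. In the macrophage and neutrophil list, *Lyz2* made up most of the sums, at 1047, 780 and 166 FPKM. Its genes *Cd68* (17.0, 27.4 and 16.7 FPKM), *Csf1r* (1.25, 1.85 and 1.30 FPKM) and *Mrc1* (0.877, 0.743 and 0.638 FPKM) were not more than 2-fold lower in S52. *Tyrobp*, *Marco* and the mesothelial genes *Msln*, *Upk3b* and *Wt1* were listed at 0 in S52. *Wt1* was at 0 in S44 as well and at 0.152 FPKM in S38. In bulk samples, fewer cells of a type and less RNA per cell cannot be told apart.

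Of the 10 genes, 9 were detected (90.0%), against 48.3% of all genes and 54.7% of 19869 protein-coding genes in the table. Their median was 18.3 FPKM, against 0.784 FPKM over all genes and 1.89 FPKM over the protein-coding genes. Because the 10 genes were chosen with earlier results of these data known, no conclusion is drawn from these differences. *Hpgd* was far above the rest, followed by *Alox5ap*, *Ptgs1*, *Ptgis*, *Ptgs2*, *Tbxas1*, *Tbxa2r*, *Ptges*, *Ptgir* and *Ptger4*. Between neighbours in this order the ranges over the 3 libraries did not overlap for *Hpgd* above *Alox5ap*, *Tbxa2r* above *Ptges* and *Ptges* above *Ptgir*, and they overlapped for the other 6 pairs. *Ptges* and *Ptgir* were apart only narrowly, with 2.97 FPKM as the lowest value of the first and 2.89 FPKM as the highest of the second. Of those 6 pairs, *Ptgs1* was above *Ptgis* in 3 of 3 libraries, and in each other pair the gene with the higher mean was higher in 2 of 3. Rescaling each library, either to the same sum or by the median ratio of its genes, left the order of the means as it was.

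**Figure D1:**
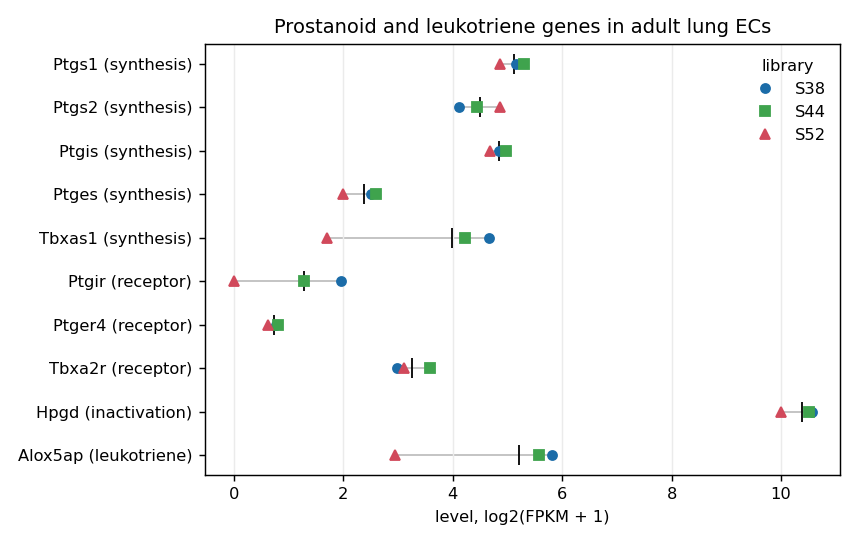
Level of each of the 10 genes on the log2(FPKM + 1) axis, with 1 symbol per library and a vertical tick at the mean FPKM. *Hpgd* lies far to the right of the others, and *Tbxas1*, *Alox5ap* and *Ptgir* show the widest gaps between S52 and the other libraries.

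The sequences just upstream of 4 of these genes are shown for the contrasts that follow: the isoenzymes *Ptgs1* and *Ptgs2*, whose ratio differed between libraries, *Tbxas1*, which was low in S52, and *Hpgd*, the most abundant. Each line gives the 250 bases before the RefSeq transcript start (GRCm38.p6), in the direction of transcription. They are chr2:36230176-36230425 for *Ptgs1*, chr1:150099781-150100030 for *Ptgs2*, chr6:38918736-38918985 for *Tbxas1* and chr8:56294302-56294551 for *Hpgd*, all on the plus strand. Capitals mark matches to 10 short motifs searched on both strands. These were the TATA box with the letters TATAAA, the cAMP response site with TGACG, the E-box with CACGTG, the NF-Y site with CCAAT, the NF-kappaB type motif, the AP-1 site with TGANTCA, the GATA site with AGATAA, the ETS core with CCGGAA, the GC box with GGGCGG and the C/EBP site with TTGCGCAA.
Ptgs1: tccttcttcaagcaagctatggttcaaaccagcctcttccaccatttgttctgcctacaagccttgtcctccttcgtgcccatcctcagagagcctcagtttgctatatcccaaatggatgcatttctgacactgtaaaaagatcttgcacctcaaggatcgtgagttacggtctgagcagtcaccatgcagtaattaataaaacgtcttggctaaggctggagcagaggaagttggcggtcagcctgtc
Ptgs2: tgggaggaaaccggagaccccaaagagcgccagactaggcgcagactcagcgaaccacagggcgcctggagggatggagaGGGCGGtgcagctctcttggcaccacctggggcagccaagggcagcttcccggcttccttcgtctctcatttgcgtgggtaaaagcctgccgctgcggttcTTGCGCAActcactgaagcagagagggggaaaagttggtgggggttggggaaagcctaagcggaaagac
Tbxas1: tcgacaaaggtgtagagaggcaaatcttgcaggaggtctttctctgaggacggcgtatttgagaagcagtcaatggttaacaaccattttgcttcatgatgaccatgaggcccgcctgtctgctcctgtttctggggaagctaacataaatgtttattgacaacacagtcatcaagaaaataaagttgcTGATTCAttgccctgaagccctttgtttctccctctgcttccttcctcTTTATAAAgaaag
Hpgd: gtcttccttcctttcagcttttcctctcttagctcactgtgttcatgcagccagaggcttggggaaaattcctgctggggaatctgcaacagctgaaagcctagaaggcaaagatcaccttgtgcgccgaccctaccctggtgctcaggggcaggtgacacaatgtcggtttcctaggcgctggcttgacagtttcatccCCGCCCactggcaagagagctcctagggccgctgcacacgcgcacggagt
The *Ptgs1* window, 48.0% G and C, matched 0 of the 10 motifs. The *Ptgs2* window, 61.6% G and C, held GGGCGG, the GC box, from 170 to 165 bases upstream and TTGCGCAA, a C/EBP type site, from 69 to 62 bases upstream. Among 32851 RefSeq windows of this length, 32.7% held the GC box and 0.164% held TTGCGCAA, a motif added after these letters had been seen. The *Tbxas1* window held a TATAAA from 11 to 6 bases upstream, which overlaps a match on the other strand, and the AP-1 motif from 61 to 55 bases upstream. TATAAA was in 12.4% of all windows and TGANTCA in 6.75%. The motifs without a match in these 4 windows were in 6.02% (the E-box) to 33.8% (CCAAT) of all windows, with 9.99% for the GATA site, 12.0% for the ETS core, 17.6% for the NF-kappaB type and 17.8% for TGACG. The RefSeq start used for *Tbxas1* lies inside the span that GENCODE gives that gene, so the *Tbxas1* window lies within the annotated gene. The *Hpgd* window, 56.8% G and C, matched the GC box alone, on the opposite strand and from 50 to 45 bases upstream. These matches describe letters and show no binding, and the windows depend on the start site that RefSeq gives.

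The cyclooxygenases were both well expressed, and the ratio between them varied with the library. *Ptgs1* (COX-1, the constitutive isoenzyme, chromosome 2 from 36230426 to 36252272, plus strand) measured 34.8, 38.7 and 28.1 FPKM across S38, S44 and S52, a mean of 33.9 ± 5.39 (SD, n = 3). *Ptgs2* (COX-2, the inducible isoenzyme, chromosome 1 from 150100031 to 150108227, plus strand) was at 16.4, 20.7 and 28.1 FPKM, a mean of 21.7 ± 5.92 (SD, n = 3). *Ptgs1* was thus the higher gene in S38 and S44, by 2.12 and 1.87 times, and in S52 the levels were equal, with a ratio of 0.999. The ratio of the means was 1.56. *Ptgs2* was the only one of the 9 detected genes that was highest in S52, where 33.9% of all detected genes were highest, and it was 1.71 times its S38 level there. Its difference from S38 to S52 in log2(FPKM + 1), 0.74, was above that of 95.7% of detected genes, and the difference from S44, 0.43, was above that of 86.2%. *Ptgs2* is also an immediate-early gene in many cells. Among 9 genes of the dissociation stress list, which includes *Fos* and *Egr1*, 3 were highest and 2 lowest in S52, and the list summed to 3325, 4144 and 4866 FPKM (S38, S44, S52), with *Ier3* at 884, 1124 and 1873 FPKM. The median difference of the list in log2(FPKM + 1) was 0.35 for S52 from S38 and -0.12 for S52 from S44, so the sum and the median differ in direction against S44. The part of dissociation in the *Ptgs2* level was not tested.

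Among the terminal synthases, *Ptgis* varied little between libraries and *Tbxas1* varied widely. *Ptgis* (prostacyclin synthase, chromosome 2 from 167191805 to 167240604, minus strand) gave 27.9, 30.6 and 24.8 FPKM (S38, S44, S52), a mean of 27.8 ± 2.89 (SD, n = 3). Its coefficient of variation, 10.4%, was the smallest of the 10 genes. *Ptges*, the microsomal prostaglandin E synthase (chromosome 2 from 30889471 to 30929863, minus strand), was at 4.67, 5.07 and 2.97 FPKM, a mean of 4.24 ± 1.11 (SD, n = 3), so *Ptgis* was 5.97, 6.04 and 8.35 times as high in the 3 libraries. *Tbxas1* (thromboxane synthase, chromosome 6 from 38875404 to 39084585, plus strand) gave 24.4 and 17.8 FPKM in S38 and S44, and 2.28 FPKM in S52, a mean of 14.8 ± 11.3 (SD, n = 3). The S52 value was 10.7-fold below S38 and 7.83-fold below S44, whereas *Ptgis* was 1.12-fold and 1.23-fold below. *Ptgis* exceeded *Tbxas1* in every library, by 1.14 times in S38, 1.72 times in S44 and 10.9 times in S52. The ratio of the means, 1.87, was 2.76 without S38, 1.98 without S44 and 1.39 without S52, so it moves with the libraries that enter it.

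*Tbxa2r*, *Ptgir* and *Ptger4* are the receptors among the 10 genes. *Tbxa2r* (the thromboxane receptor, chromosome 10 from 81328731 to 81335172, plus strand) was the highest of these 3, with 6.93, 11.05 and 7.67 FPKM (S38, S44, S52), a mean of 8.55 ± 2.196 (SD, n = 3). *Ptgir* (the prostacyclin receptor, chromosome 7 from 16906490 to 16910905, plus strand) was at 2.89 FPKM in S38 and 1.44 FPKM in S44 and was listed at 0 in S52. In S52, 127 genes were at 0 while both other libraries gave 1 FPKM or more, against 12 such genes for S38 and 6 for S44. For 29 of the 127 genes both other libraries gave 10 FPKM or above. Of these genes at 0, 86 in S52, 2 in S38 and 2 in S44 were protein-coding. Whether such a 0 reflects absent fragments or an estimate that failed was not tested. Read as an absence of fragments, the value would allow up to 0.0278 FPKM (3 fragments over the longest transcript, counting error only). *Ptger4* (the EP4 receptor of prostaglandin E2, chromosome 15 from 5206661 to 5244187, minus strand) was at 0.711, 0.749 and 0.539 FPKM, a mean of 0.667 ± 0.112 (SD, n = 3), and was the member that missed the detection threshold. Exons of *Gm15937*, a gene on the other strand, cover 16.5% of its exon bases, and reads without strand information cannot be divided between the genes. *Tbxa2r* was above *Ptgir* in all 3 libraries, so the thromboxane receptor was the higher receptor where the prostacyclin synthase was the higher enzyme. The ratio of *Ptgir* to *Tbxa2r* was 0.417 in S38 and 0.130 in S44, with 0.169 for the means, 0.0770 without S38, 0.198 without S44 and 0.241 without S52.

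*Hpgd*, which encodes the dehydrogenase that oxidises and so inactivates prostaglandins, was among the most abundant transcripts of the fraction. The gene spans bases 56294585 to 56321043 of chromosome 8, plus strand. S38, S44 and S52 gave 1507, 1454 and 1028 FPKM, a mean of 1329 ± 262 (SD, n = 3). That mean was above *Pecam1* and *Cdh5* and ranked 69 among all gene symbols and 26 among protein-coding genes. In S52 *Hpgd* was below *Pecam1*, which was at 1164 FPKM there. Among all gene symbols *Hpgd* ranked 43 in S38, 60 in S44 and 76 in S52. *Hpgd* held 89.6%, 89.4% and 91.0% of the summed level of the 10 genes. S52 was lowest, by 1.47-fold against S38 and 1.41-fold against S44, and 18.7% of detected genes differed further downward in each comparison. Its exons overlap no other annotated gene, and no window of 51 bases, the read length, in its transcripts occurs in another gene. The 3 genes with the most similar level in every library were *Cldn5*, an endothelial tight junction gene, *Cyp4b1* and *Sepp1*, which differed from *Hpgd* by at most 0.25, 0.26 and 0.27 in log2(FPKM + 1) over the 3 libraries. The transporter *Slco2a1*, which carries prostaglandins into cells, was also abundant and stable, at 283, 327 and 297 FPKM, a mean of 302 ± 22.5 (SD, n = 3). *Hpgd* exceeded it by 5.33, 4.45 and 3.46 times in S38, S44 and S52.

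*Alox5ap* encodes the membrane protein FLAP, which presents arachidonic acid to 5-lipoxygenase at the start of leukotriene synthesis. The gene spans bases 149264767 to 149288153 of chromosome 5, plus strand. It gave 55.5 and 46.7 FPKM in S38 and S44 and 6.66 FPKM in S52 (mean 36.3 ± 26.0, SD, n = 3), so S52 was 8.34-fold and 7.01-fold lower. Exons of *Gm19719*, on the other strand, cover 13.3% of its exon bases. *Alox5*, the 5-lipoxygenase itself, was at 0.828 and 0.441 FPKM in S38 and S44 and was listed at 0 in S52, so its mean, 0.423 FPKM, was below the detection threshold.

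Across libraries, 3 of the 9 detected genes (*Tbxas1*, *Alox5ap* and *Ptgir*) spanned more than 2-fold from lowest to highest library, against 20.1% of the 11770 detected genes of the table. The same 3 genes were more than 2-fold below both others in S52, against 8.04% of detected genes, and 0 of the 9 were over 2-fold above both there, against 1.72%. S52 was the lowest library for 7 of the 9, against 46.3% of detected genes, and for *Ptger4*, and rescaling the libraries to the same sum added *Tbxa2r*. Without S52 the number over 2-fold was 1, *Ptgir*, and *Tbxas1* and *Alox5ap* then differed by less than that. In log2(FPKM + 1), the difference of S52 from S38 and from S44 was -2.95 and -2.52 for *Tbxas1* and -2.88 and -2.64 for *Alox5ap*. Only 1.03% and 1.21% of detected genes differed further downward than *Tbxas1*, and 1.07% and 1.10% further than *Alox5ap*. The median of all detected genes was -0.083 against S38 and -0.062 against S44. The platelet list gave medians of -3.99 and -3.93 and the leukocyte list -2.80 and -2.18 on the same scale. The macrophage and neutrophil list gave -0.55 and -0.69, the alveolar type 2 list -2.37 and -1.79, the airway list -1.80 and -1.69, and the endothelial list 0.092 and -0.056. *Tbxas1* and *Alox5ap* are known from platelets, macrophages and other blood cells, and the part of such cells in their levels was not tested. The study describes a gate without CD45-positive cells for its kidney ECs and does not state one for these lung libraries. *Ptprc*, which encodes CD45, was at 4.30, 2.06 and 0.434 FPKM (S38, S44, S52). *Ptgs1*, also known from platelets, was 1.24-fold and 1.38-fold lower in S52.

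**Figure D2:**
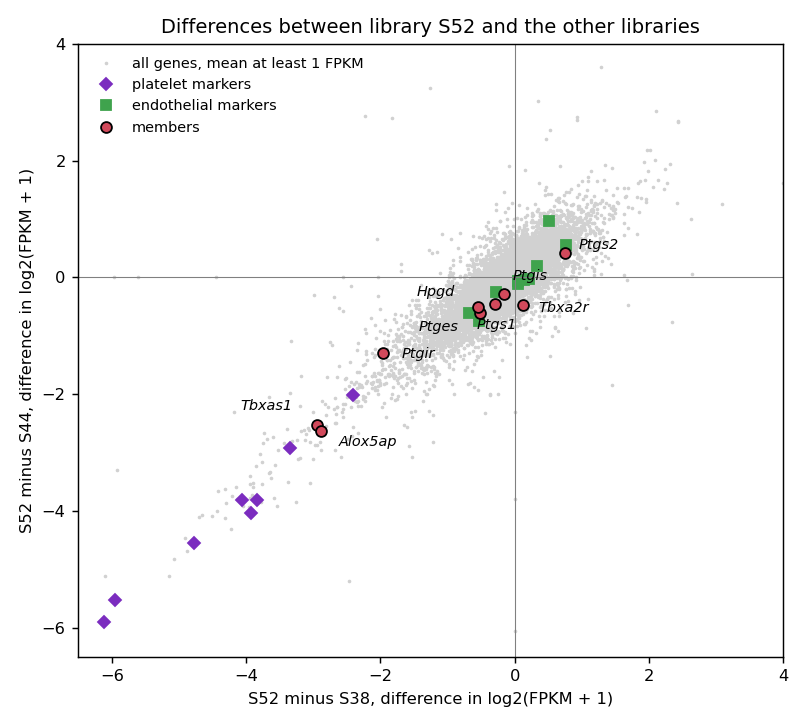
Difference in log2(FPKM + 1) of S52 from S38 (horizontal axis) and from S44 (vertical axis) for the 11770 detected genes, with the 9 detected members, the platelet markers and the endothelial markers drawn over them; both axes share S52, and 91 genes lie outside the axes. *Tbxas1* and *Alox5ap* lie on the low side of both axes, while *Ptgs2* lies on the high side. The other marker lists are not drawn, so nearness to the platelet markers singles out no cell type.

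**Figure D3:**
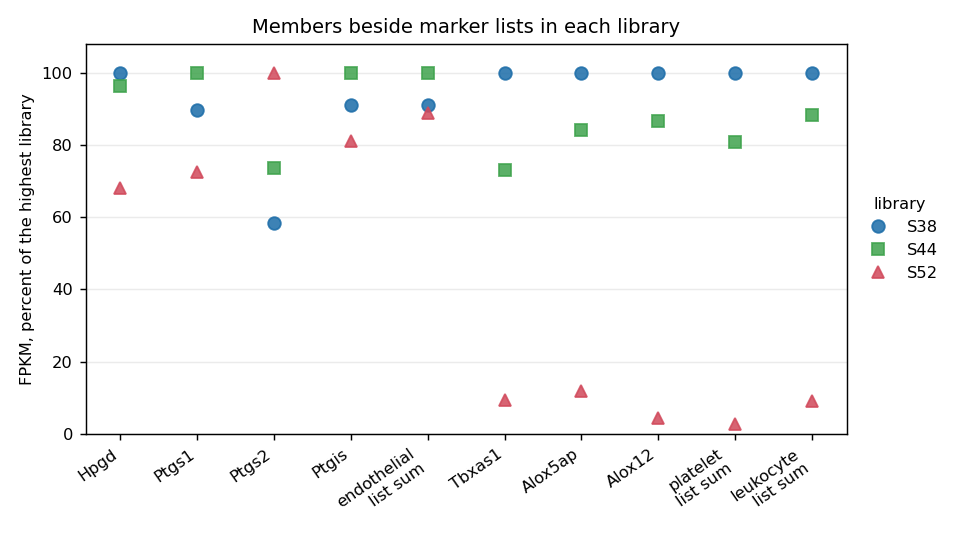
FPKM in each library as a percent of the highest library for 6 members, *Alox12* and the summed levels of 3 marker lists. *Hpgd*, *Ptgs1*, *Ptgs2*, *Ptgis* and the endothelial list stay within 2-fold, and *Tbxas1*, *Alox5ap*, *Alox12* and the platelet and leukocyte lists are lowest in S52 by more than 7-fold against either other library.

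The rest of the pathway was described with 40 further genes, of which 21 (52.5%) were detected. That share lies between those of all genes (48.3%) and of protein-coding genes (54.7%). The median over the 40 was 1.27 FPKM, against 0.784 FPKM over all genes and 1.89 FPKM over protein-coding genes. At the release of arachidonic acid 5 of 13 genes were detected. *Mgll*, the monoacylglycerol lipase, was highest at 70.5 ± 9.87 FPKM (SD, n = 3), then *Pla2g12a* at 17.0 ± 5.24 and *Pla2g4a* at 7.05 ± 3.76 (SD, n = 3 for each), and *Pla2g6* and *Pla2g1b* had means of 3.22 and 1.71 FPKM. *Pla2g4a*, the cytosolic phospholipase A2 that supplies the cyclooxygenases, was at 9.54, 8.88 and 2.73 FPKM and was 3.50-fold and 3.26-fold lower in S52. The remaining 8 genes had means of at most 0.511 FPKM.

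Among the other terminal synthases 4 of 6 were detected. *Ptges3*, the cytosolic prostaglandin E synthase and a co-chaperone, was at 79.6 ± 9.20 FPKM, *Ptges2* at 6.92 ± 0.665 and *Fam213b*, which can form prostaglandin F, at 4.33 ± 1.40 (SD, n = 3 for each). For *Ptges3*, 19.5% of read-length windows also occur in other genes, chiefly *Ptges3-ps*. *Akr1b3*, an aldose reductase that can do so too, gave 6.94, 23.7 and 48.2 FPKM (S38, S44, S52), the opposite direction to *Tbxas1*, and 13.5% of its windows occur in other genes. The D synthases were not detected: *Ptgds* was listed at 0 in all 3 libraries and *Hpgds* had a mean of 0.0864 FPKM. Among the other 6 prostanoid receptors 1 passed the detection threshold, and its value is not reported here, so no order over all prostanoid receptors is given. The remaining 5 receptors had means of at most 0.377 FPKM.

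All 5 genes of transport and further inactivation were detected. Besides *Slco2a1*, the carbonyl reductase *Cbr1* was at 35.2 ± 4.61 FPKM and the prostaglandin reductases *Ptgr2* and *Ptgr1* at 14.7 ± 0.844 and 2.34 ± 0.666 (SD, n = 3 for each). *Abcc4*, an exporter of prostaglandins, was at 3.35 ± 0.375 FPKM (SD, n = 3). Antisense exons of *Gm47484* cover 32.0% of the *Ptgr2* exon bases. None of these 5 genes was over 2-fold apart between libraries. In the leukotriene and lipoxygenase group 6 of 10 were detected, and 5 of these were over 2-fold apart. *Alox12*, known as the platelet lipoxygenase, gave 140, 121 and 6.04 FPKM (S38, S44, S52), 23.1-fold and 20.0-fold lower in S52. *Cysltr2* was at 5.15, 4.51 and 0.537 FPKM, *Mgst2* at 17.4, 12.4 and 6.34 FPKM, and *Ltc4s* at 2.19 and 2.24 FPKM in S38 and S44 and listed at 0 in S52, with 26.4% of the *Ltc4s* exon bases covered by *Gm26542* on the other strand. *Ltb4r1*, a leukotriene B4 receptor, moved the other way, at 0.447, 0.853 and 1.90 FPKM. *Lta4h*, which makes leukotriene B4, was steady at 47.5 ± 2.92 FPKM (SD, n = 3). Over all 21 detected genes, 8 were over 2-fold apart, 4 were more than 2-fold below both others in S52 and 2 were over 2-fold above both. The shares of all detected genes given above apply here as well.

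**Figure D4:**
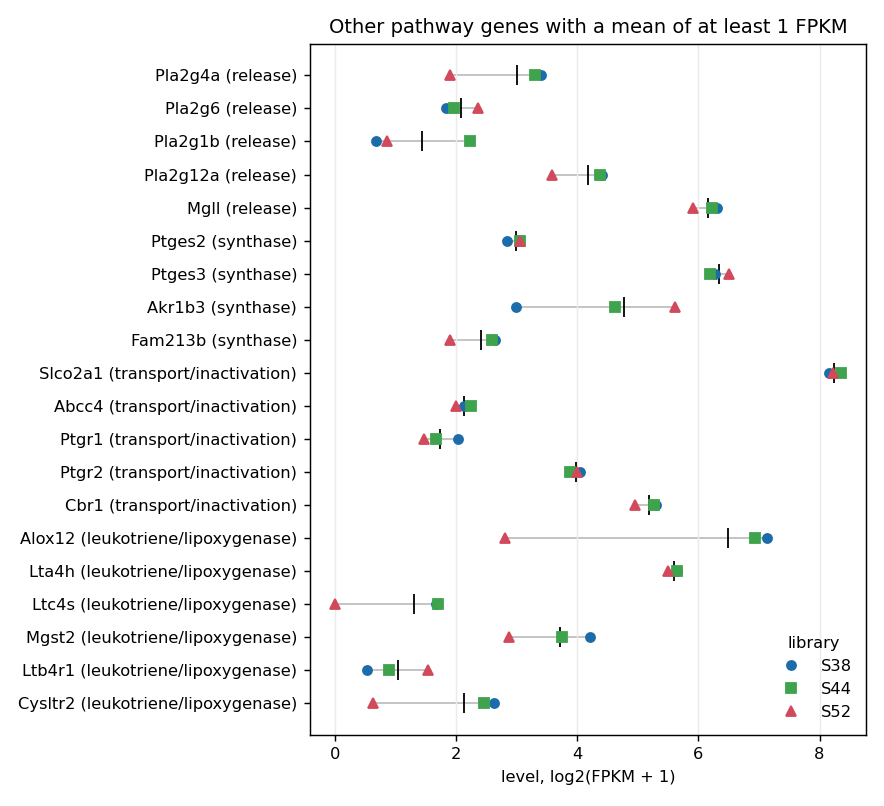
Level of 20 of the 21 detected pathway genes other than the 10 members on the log2(FPKM + 1) axis, with 1 symbol per library and a vertical tick at the mean FPKM. *Slco2a1* is highest with its 3 libraries close together, and *Alox12*, *Cysltr2*, *Pla2g4a* and *Ltc4s* are lowest in S52 while *Akr1b3* and *Ltb4r1* are highest there.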

How the data were processed

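Bulk poly-A RNA of sorted adult lung ECs was sequenced as unstranded paired reads of 51 bases in 3 libraries. The table that the authors deposited holds FPKM, 1 row per gene symbol (mm10). The submitters' processing notes name bcl2fastq 2.17, FastQC 0.11.5, Trimmomatic 0.36, TopHat2 2.1.0 and Cufflinks 2.2.1, whereas the methods of the paper describe STAR and HTSeq, and the gene annotation is not given in the sources used here. FPKM can misplace reads between overlapping or similar genes. All 3 columns were used (0 left out).

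Values were used as deposited, in Python 3.11.15 with numpy 2.4.6 and pandas 2.3.3. Differences between libraries used log2(FPKM + 1), a pseudocount of 1, which understates changes of low genes. Because all libraries belong to 1 group, levels were described with SDs and no test was run. Fragments per library were estimated from low values of 7079 genes with 1 basic GENCODE M21 transcript of 800 to 4000 bp: 76.7%, 75.3% and 72.3% of values up to 10 fragments lay within 0.15 of a whole number in S38, S44 and S52. On 3 simulated libraries of those genes the error was at most 0.0114%. The simulation drew whole counts with a length correction that the estimate searches, so it does not measure the error in the real libraries. In GENCODE M21 (GRCm38), 23318 of 24346 symbols (95.8%) were found, and positions are from it. RefSeq upstream sequences were found for 8 of the 10 genes.

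The members, gene lists and motifs were chosen with earlier results of these data known. Named were all members, every detected pathway gene but 1 receptor, which is not reported here, the marker lists, and the 3 genes nearest to the highest member. Genes named at 0 and overlapping genes were chosen after their values were seen. *Prxl2b* and *Fam213b* are 1 gene, counted once. Alternatives left out each library, rescaled the libraries, and moved the thresholds.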

Additional observations from a re-analysis of the deposited data

How the results depend on the processing

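The number of detected members stayed within 1.5 times of 9 under every alternative, from 8 to 9 when a library was left out (without S38 *Ptgir*, at a mean of 0.721 instead of 1.44 FPKM, fell below the threshold) and from 6 to 10 with thresholds of 0.1 to 10 FPKM. The number of other pathway genes detected was 32 at a threshold of 0.1 FPKM and 11 at 10 FPKM, against 21, and 20 to 22 with a library left out. The number of members over 2-fold apart was 1 to 3 with a library left out. *Ptgs1* to *Ptgs2* gave 1.37 to 1.98, *Ptgis* to *Tbxas1* 1.39 to 2.76 and *Ptgir* to *Tbxa2r* 0.0770 to 0.241 with a library left out. Rescaling to a sum of 1000000 lowered 7 of 10 member means by more than their SD, and the median ratio 0. With that rescaling *Tbxa2r* was lowest in S52 as well, and the median of detected genes shifted from -0.0876 to -0.386 in log2(FPKM) against S38 and from -0.0645 to 0.112 against S44. By the depth estimate the lowest member, *Ptger4*, still had about 85, 92 and 58 fragments in S38, S44 and S52. The 3 libraries of 1 group leave no test of an organ, stage or cell source.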
